A study of Mus musculus with 16 samples.

Results

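The genes described here are 52 genes of DNA replication and S phase, from the licensing of origins to the copying of chromatin, measured in blood-forming cells of mouse bone marrow. They were chosen by name. Each gene was read from the array row that carries its symbol alone and, where a gene had several such rows, from the row with the highest mean over all arrays. All 52 had a row, among 19937 genes with a row of their own and 22961 rows tested. The arrays were Affymetrix Mouse Gene 1.0 ST arrays, 16 in all, and every value is a log2 intensity, so a difference of 1 is a doubling. Levels were not compared between genes, because the probes of different genes differ in brightness.

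LSK cells lack lineage markers and carry both Sca1 and c-Kit; they contain the stem cells and the earliest progenitors. MP cells, the myeloid progenitors, carry c-Kit but neither Sca1 nor lineage markers. Both came from WT mice and from Parp-2-/- mice, which lack the DNA damage sensor Parp-2, on the C57BL/6J background. They were taken without irradiation or 2.5 hours after 5 Gy of gamma irradiation (IR). The 8 groups are therefore WT LSK, WT LSK IR, Parp-2-/- LSK, Parp-2-/- LSK IR, WT MP, WT MP IR, Parp-2-/- MP and Parp-2-/- MP IR, with 2 pools each (n = 2), and each pool held cells of at least 3 mice. No label states the age of the mice. The labels also do not say whether mice or isolated cells were irradiated, or that the pools of a group held different mice. The p-values thus measure the spread between these pools. Tests were made in limma with 8 group means over all 16 arrays and two-sided p-values with Benjamini-Hochberg adjustment across all 22961 rows, and a gene was called at an adjusted p under 0.05.

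Cells copy their genome in a fixed order of steps. The origin recognition complex, Cdc6 and Cdt1 load the MCM helicase onto origins in G1, and the kinases Cdc7-Dbf4 and cyclin E-Cdk2 then turn it into an active helicase with Cdc45 and GINS. Primase and the polymerases copy the strands, held by the PCNA clamp, while histone chaperones rebuild chromatin behind the fork. Many of these genes are transcribed together at the G1/S boundary under E2F control. Most long-term haematopoietic stem cells are quiescent, and committed progenitors divide often.

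The genotype and sort labels were checked first. In LSK cells Parp2 ranged from 7.40 to 7.96 in WT and from 5.70 to 6.77 in Parp-2-/- pools, and in MP cells from 7.98 to 8.40 and from 6.74 to 7.11. Kit, the receptor used in both sorts, read 8.78 to 9.46 in LSK and 8.62 to 9.06 in MP cells, and the gene for Sca1 (Ly6a) was not on a row of 1 symbol. Over the 4 pairs of groups (both genotypes, with and without irradiation), 9 of 12 measured stem cell markers were higher in LSK cells and 0 lower, while 9 of 9 erythroid markers and 9 of 10 granulocyte and monocyte markers were lower and 1 of the latter higher. The pools of an LSK group correlated less closely over all rows (r = 0.966 to 0.974) than those of an MP group (r = 0.989 to 0.994).

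Promoters are shown for Orc1, Cdc6, Mcm5 and Mcm6, because these genes of the first replication steps were lower in LSK cells and hold letters of the E2F type. RefSeq promoters of GRCm38.p6 (250 bases before to 50 after each start) were given for 43 of the 52 genes and not for Mcm4, Pole, Rfc2, Ccne2, Gins4, Gins1, Prim2, Gins2 and Gmnn. Below, each gene's 250 bases before the start are written 5′ to 3′ on the gene's strand, and capitals mark matches to the E2F letters TTTCCCGC, TTTCGCGC, TTTGCCGC or TTTGGCGC on either strand.
Orc1, chr4:108579204-108579453, plus strand: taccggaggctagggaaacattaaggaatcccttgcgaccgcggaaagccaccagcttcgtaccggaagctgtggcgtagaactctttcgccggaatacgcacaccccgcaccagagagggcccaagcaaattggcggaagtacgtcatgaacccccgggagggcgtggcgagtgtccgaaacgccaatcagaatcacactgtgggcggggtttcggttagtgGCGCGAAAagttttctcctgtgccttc
Cdc6, chr11:98907901-98908150, plus strand: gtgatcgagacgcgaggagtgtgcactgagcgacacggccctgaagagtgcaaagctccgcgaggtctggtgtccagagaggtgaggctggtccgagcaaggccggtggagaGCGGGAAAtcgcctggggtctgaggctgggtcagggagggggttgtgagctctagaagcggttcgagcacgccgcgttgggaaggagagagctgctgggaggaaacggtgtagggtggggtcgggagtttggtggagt
Mcm5, chr8:75109259-75109508, plus strand: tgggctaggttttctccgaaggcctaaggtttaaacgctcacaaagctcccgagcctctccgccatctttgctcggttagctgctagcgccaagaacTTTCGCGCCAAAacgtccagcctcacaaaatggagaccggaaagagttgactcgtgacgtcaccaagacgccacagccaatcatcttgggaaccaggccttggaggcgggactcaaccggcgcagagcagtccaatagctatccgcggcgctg
Mcm6, chr1:128359706-128359955, minus strand: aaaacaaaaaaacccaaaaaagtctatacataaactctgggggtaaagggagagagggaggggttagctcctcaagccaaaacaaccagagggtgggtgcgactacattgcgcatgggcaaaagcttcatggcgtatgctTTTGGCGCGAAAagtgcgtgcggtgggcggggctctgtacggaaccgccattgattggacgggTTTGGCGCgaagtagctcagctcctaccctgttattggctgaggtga
The match nearest the start begins 27 bases before it in Orc1, 138 in Cdc6, 149 in Mcm5 and 47 in Mcm6. Mcm5 holds 2 overlapping matches, and Mcm6 holds 3, of which the 2 farther from the start overlap. Over the whole 300-base windows, 15 of 43 replication genes (34.9%) held such a match, against 2.6% of the 27025 genes of the table. The letters CCAAT, the box bound by NF-Y, were in 26 of 43 (60.5%) against 41.1%. The letters TTTGAA of the cell cycle homology region, known from mitotic genes, were in 8 of 43 (18.6%) against 20.2%. All 3 motifs were sought on both strands. The median LSK minus MP difference was -0.43 for the 15 genes with an E2F match and -0.56 for the 28 without. A match is only a string of letters here, and binding was not measured.

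**Figure D1:**
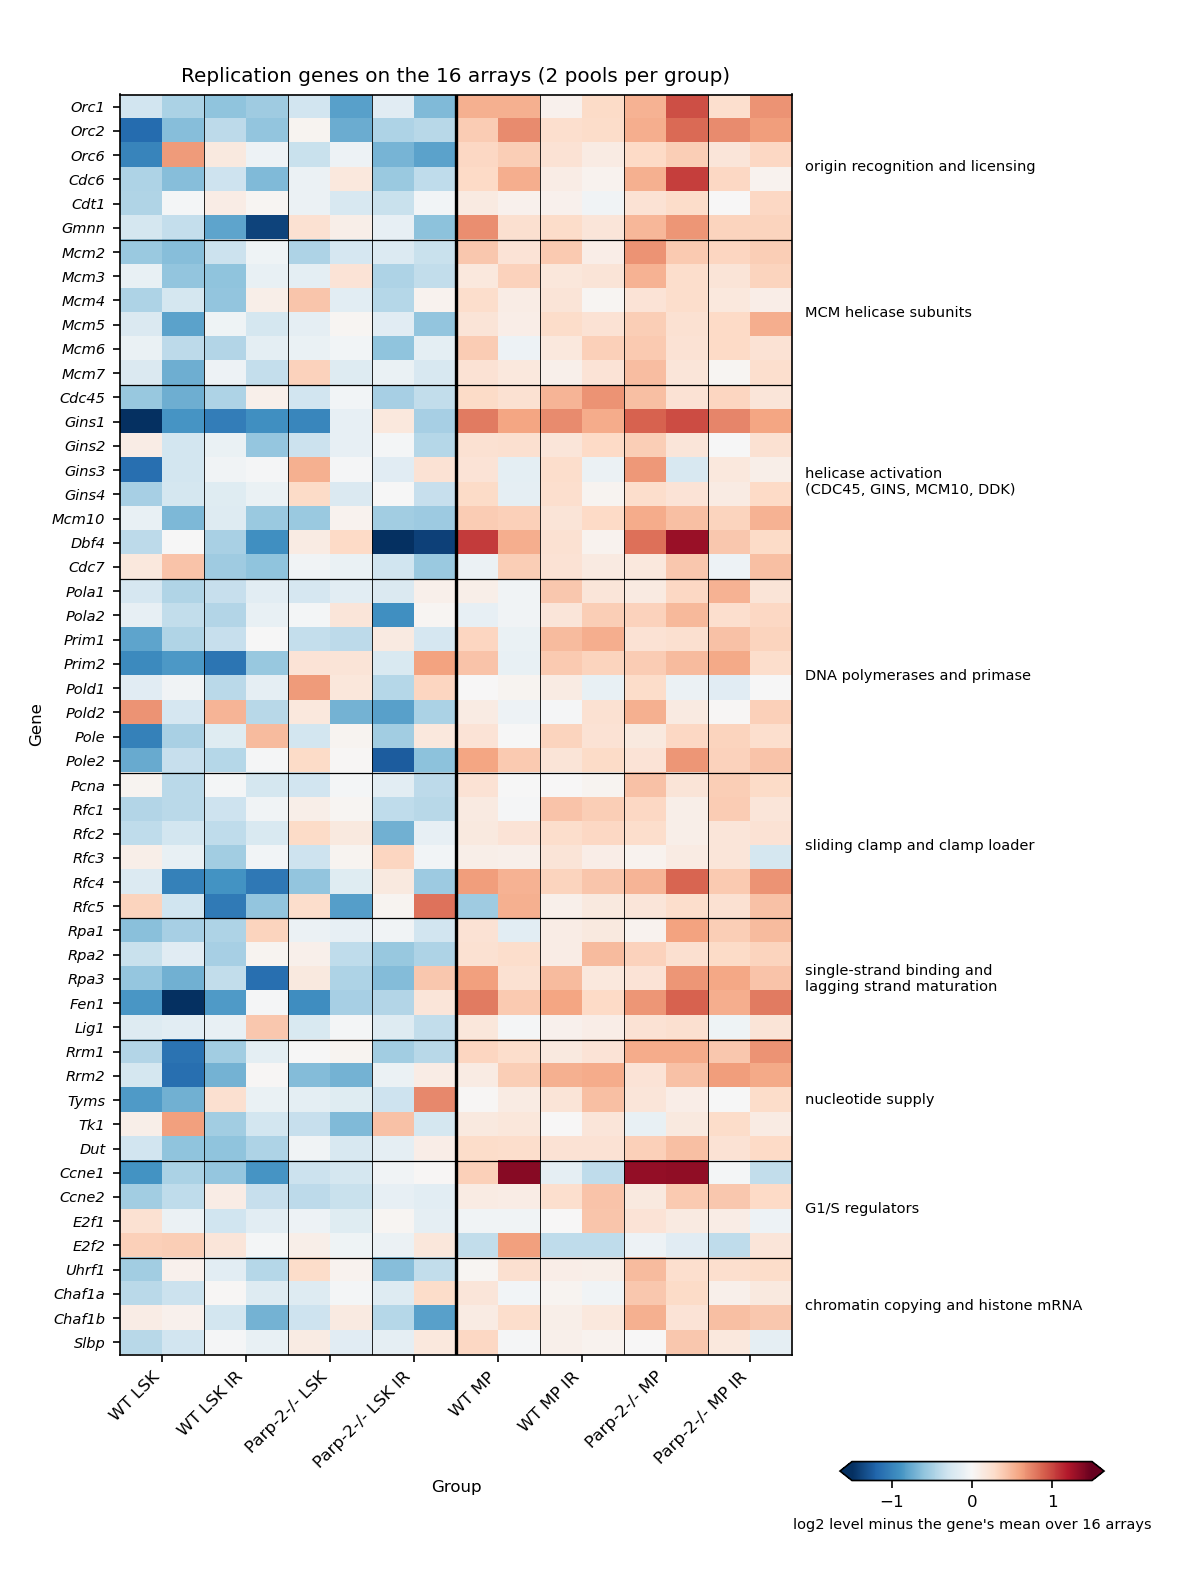
Each row is 1 of the 52 genes, grouped by role, and each column 1 of the 16 arrays (2 pools per group, pool 1 left of pool 2). Colour gives the log2 level minus that gene's mean over the 16 arrays; the 8 LSK arrays left of the thick line are mostly blue (below the mean) and the 8 MP arrays mostly red, and E2f2 runs the other way.

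LSK cells had lower levels of most replication genes than MP cells. Averaged over the 4 pairs of groups, 41 of the 52 genes were lower in LSK cells, 0 were higher and 11 were not called, against 17.9% of all tested rows called lower. The median difference was -0.48 log2 units, where the median of all tested rows was 0.12 and that of the 11480 rows above the median row mean was -0.16. All 52 genes lay among those brighter rows, of which 33.3% were called lower when fitted alone. In 14 genes every LSK array lay below every MP array, which held for 3.94% of all rows. The mean level of the 52 genes was 7.16 to 7.46 on the 8 LSK arrays and 7.76 to 7.95 on the 8 MP arrays. In pooled cells, fewer cells in S phase and less RNA of these genes per cell cannot be told apart.

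The size of this difference depended on how the arrays were scaled. With a further quantile normalisation 20 genes were called lower (8.66% of all rows), the median was -0.26 and 44 genes lay below 0. With each array centred on its median 45 genes were called lower (20.9% of all rows), and the share of lower among all called rows went from 45.5% to 71.2%. Of 11 measured housekeeping genes, 7 were also lower in LSK cells, among them Gusb (-0.60 ± 0.09) and Tfrc (-1.70 ± 0.11), the transferrin receptor, which erythroid cells make in large amounts. Their mean level was 9.18 to 9.58 on the LSK and 9.74 to 9.97 on the MP arrays, and the mean of the 9 erythroid markers 5.34 to 5.76 against 6.75 to 8.54. The part of these differences in the replication result was not tested.

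All 6 genes of origin recognition and licensing were lower in LSK cells. Orc1, the ATPase subunit that is made anew in each cycle, read 4.96 to 5.61 (median 5.27) on the 8 LSK arrays and 5.84 to 6.74 (median 6.30) on the 8 MP arrays. Its arrays did not overlap, and the difference was -0.96 ± 0.12 (adjusted p = 0.000148). Orc2, a core subunit, read 6.31 to 7.51 (median 6.94) against 7.73 to 8.32 (median 8.05), again with no overlap, a difference of -1.09 ± 0.12 (adjusted p = 8.27e-05). Cdc6, the loader of the helicase, differed by -0.73 ± 0.10 and Gmnn, the inhibitor of Cdt1, by -0.80 ± 0.11. Cdt1 (-0.26 ± 0.09, adjusted p = 0.0362) and Orc6 (-0.55 ± 0.18, adjusted p = 0.0317) passed narrowly and were called in 5 of the 16 fits that left out 1 array. With quantile normalisation these last genes were not called, and the other 4 were.

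The MCM2 to MCM7 subunits of the helicase were lower as a set, 6 of 6. Mcm2 read 7.02 to 7.60 (median 7.34) in LSK and 7.77 to 8.34 (median 8.05) in MP cells, with no overlap and a difference of -0.71 ± 0.08 (adjusted p = 0.000119). Mcm3 differed by -0.55 ± 0.10, Mcm5 by -0.55 ± 0.10, Mcm6 by -0.49 ± 0.10 and Mcm7 by -0.39 ± 0.11. Mcm4 had the smallest difference (-0.33 ± 0.12, adjusted p = 0.0466) and was called in 3 of 16 fits with 1 array left out. All 6 lay below 0 under every scaling, but with quantile normalisation only Mcm2 was called.

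Of the 8 genes that activate the helicase, 7 were lower. Gins1, a subunit of the GINS complex, had the largest difference of all 52 genes. It read 5.96 to 7.66 (median 6.59) on the LSK and 8.06 to 8.47 (median 8.22) on the MP arrays, 2.74-fold lower (-1.46 ± 0.14, adjusted p = 3.68e-05). The other subunits of the same complex had smaller differences: Gins2 by -0.43 ± 0.10, Gins4 by -0.33 ± 0.10 (called in 11 of 16 fits with 1 array left out) and Gins3 by -0.22 ± 0.16 (adjusted p = 0.262, not called). Cdc45, the further partner of the active helicase, read 6.70 to 7.51 against 7.62 to 8.11, a difference of -0.72 ± 0.09. Mcm10, which helps to open the origin, differed by -0.78 ± 0.11. Dbf4, the activating subunit of the Cdc7 kinase, differed by -1.17 ± 0.12, with 5.16 to 7.34 on the LSK and 7.09 to 8.34 on the MP arrays, and Cdc7 itself by -0.39 ± 0.10. With quantile normalisation Gins1, Cdc45, Mcm10 and Dbf4 were called, Gins2, Gins4 and Cdc7 were not, and Gins3 turned to 0.02.

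Among the polymerase genes 6 of 8 were lower. The primase and polymerase alpha subunits were all called: Pola1 (-0.44 ± 0.09), Pola2 (-0.44 ± 0.12), Prim1 (-0.62 ± 0.10) and Prim2 (-0.68 ± 0.13). Of the leading strand polymerase epsilon, Pole2 differed by -0.78 ± 0.12 and Pole by -0.45 ± 0.13. The delta polymerase genes did not pass: Pold1 read 6.14 to 7.22 (median 6.48) in LSK and 6.40 to 6.85 (median 6.57) in MP cells, a difference of -0.02 ± 0.12 (adjusted p = 0.915), and Pold2 differed by -0.33 ± 0.18 (adjusted p = 0.158). With quantile normalisation Prim1, Prim2 and Pole2 were called, Pola1 (-0.16, adjusted p = 0.165), Pola2 (-0.25, adjusted p = 0.228) and Pole (-0.19) were not, and Pold1 turned to 0.19.

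The clamp and its loader gave 4 of 6 lower. Rfc4 read 6.65 to 7.88 (median 7.16) in LSK and 8.06 to 8.60 (median 8.24) in MP cells, a difference of -1.09 ± 0.14 (adjusted p = 0.000194) with no overlap. Rfc1, the large loader subunit, differed by -0.47 ± 0.07 and Rfc2 by -0.42 ± 0.09, whereas Rfc3 (-0.14 ± 0.11) and Rfc5 (-0.33 ± 0.20) were not called. Pcna, the clamp, differed by -0.38 ± 0.09 (adjusted p = 0.00823) on its brighter row, but its other row read -0.06 ± 0.07 (adjusted p = 0.462), so that its call rests on the row chosen. With quantile normalisation Rfc4 and Pcna were called, Rfc1 and Rfc2 were not, and Rfc3 turned to 0.14.

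Of the genes for single-strand binding and the lagging strand, 4 of 5 were lower. Fen1, the flap nuclease that trims Okazaki fragments, read 4.39 to 6.09 (median 5.23) against 6.20 to 6.79 (median 6.53), a difference of -1.23 ± 0.16 (adjusted p = 0.000179) with no overlap. Rpa1, Rpa2 and Rpa3, which coat single-stranded DNA, differed by -0.46 ± 0.12, -0.57 ± 0.10 and -0.84 ± 0.17, and the other row of Rpa3 by -0.56 ± 0.08. The ligase gene Lig1 was not called (-0.22 ± 0.09, adjusted p = 0.0647). With quantile normalisation Fen1 and Rpa3 were called, Rpa1 and Rpa2 were not, and Lig1 turned to 0.06.

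For nucleotide supply 3 of 5 were lower, among them both subunits of ribonucleotide reductase. Rrm1 read 8.02 to 9.17 (median 8.70) in LSK and 9.27 to 9.80 (median 9.49) in MP cells, a difference of -0.78 ± 0.10 (adjusted p = 0.000234), and Rrm2 differed by -0.85 ± 0.13 (adjusted p = 0.000717). Neither gene overlapped between the cell types, nor did Dut, which keeps uracil out of DNA (-0.57 ± 0.08, adjusted p = 0.000273). Tyms, the thymidylate synthase (-0.34 ± 0.13, adjusted p = 0.0588), and Tk1, the thymidine kinase (-0.23 ± 0.12, adjusted p = 0.128), were not called, and Tk1 turned to 0.05 with quantile normalisation, where Rrm1, Rrm2 and Dut were called.

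Among the G1/S regulators the cyclin E genes were lower and the E2F genes were not called. Ccne2 read 6.63 to 7.27 (median 6.82) against 7.27 to 7.59 (median 7.43), a difference of -0.54 ± 0.08 (adjusted p = 0.000629), and Ccne1 differed by -0.86 ± 0.14. With quantile normalisation Ccne2 was not called (adjusted p = 0.0709). The Ccne1 average comes mainly from the unirradiated pairs (-1.54 and -1.62): in irradiated WT cells it was -0.47, and in irradiated Parp-2-/- cells it had the opposite sign (0.18 ± 0.27, adjusted p = 0.728). E2f1 differed by -0.17 ± 0.09 (adjusted p = 0.127). E2f2 was the 1 gene of the 52 above 0 (0.24 ± 0.14, adjusted p = 0.157), and in 1 group both its arrays read below the median of the array, so that its size there is not shown to be above background. Of the chromatin genes, the maintenance factor Uhrf1 (-0.43 ± 0.10) and the CAF-1 subunits Chaf1a (-0.26 ± 0.09, called in 5 of 16 fits with 1 array left out) and Chaf1b (-0.55 ± 0.10) were lower. Slbp, which binds histone mRNA, was not called (-0.21 ± 0.10, adjusted p = 0.0925), although its other row was (-0.36 ± 0.13, adjusted p = 0.0472). With quantile normalisation 0 of these 4 chromatin genes were called and their median was -0.06, with Uhrf1 at -0.14 (adjusted p = 0.452), Chaf1b at -0.33 (adjusted p = 0.0614), and Chaf1a (0.02) and Slbp (0.08) turned above 0.

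**Figure D2:**
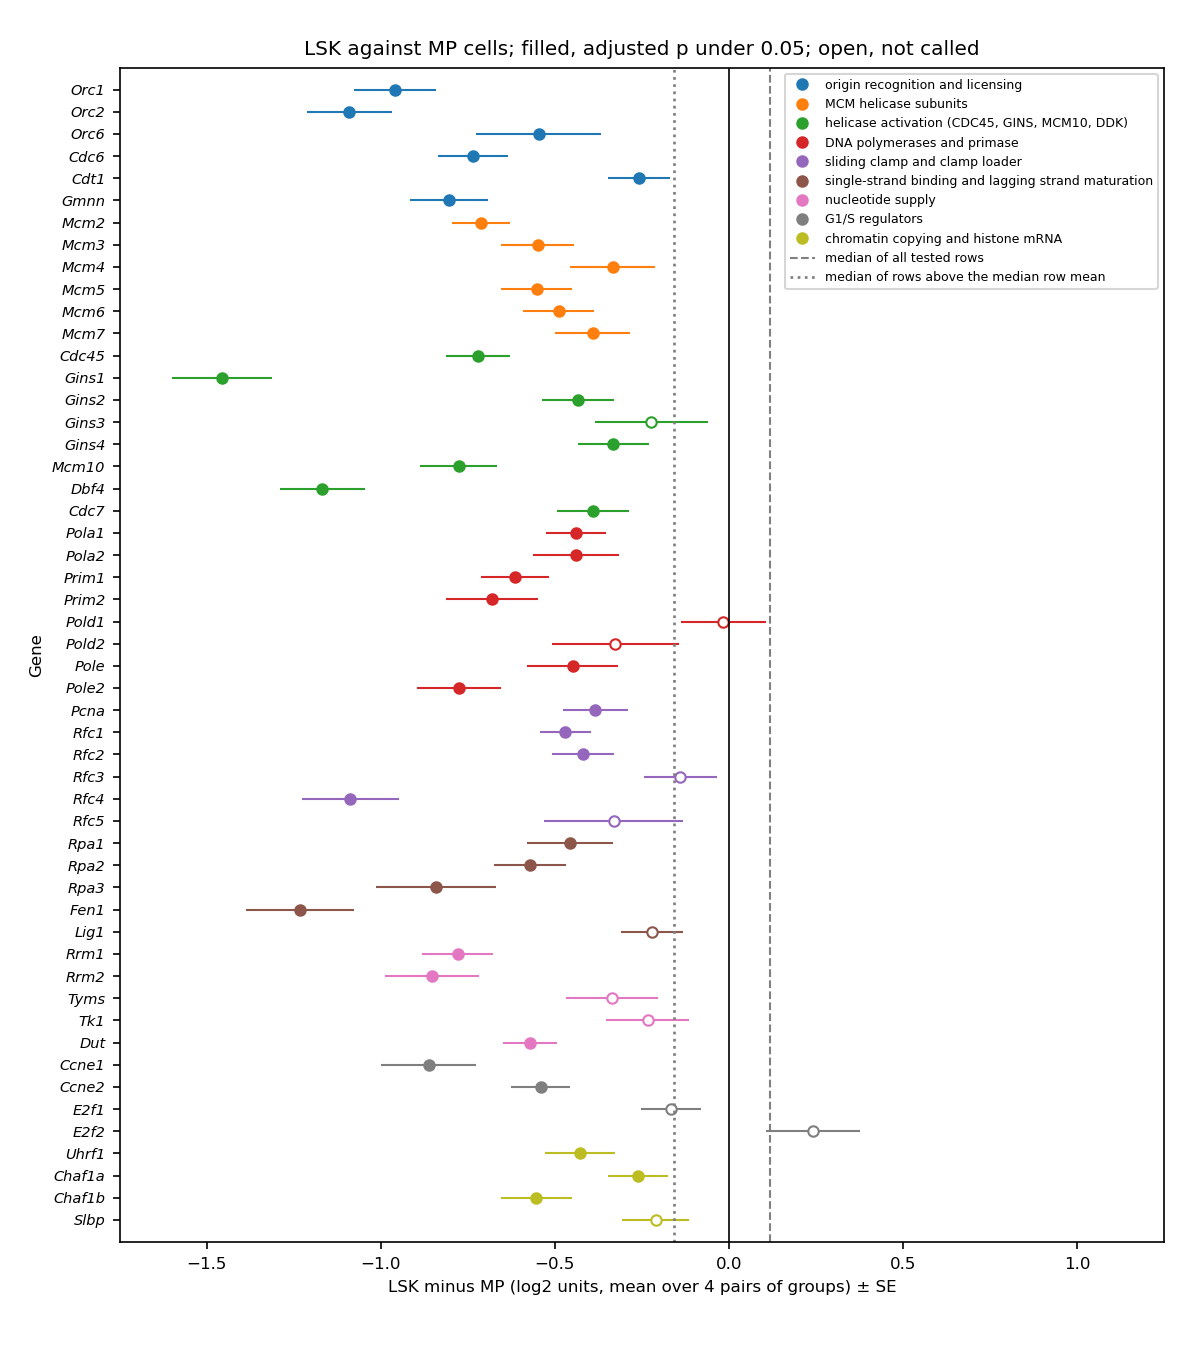
Points give LSK minus MP in log2 units for each of the 52 genes, the mean over the 4 pairs of groups, with bars of 1 SE and colours by role. Filled points (41 genes) passed at an adjusted p under 0.05; all of them lie left of 0, with Gins1 farthest at -1.46, and the median of all tested rows is at 0.12.

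Further genes of these processes were measured on the same arrays. In the average over the 4 pairs 17.9% of all rows were called lower, and 33.3% of the brighter rows when fitted alone. Called higher were 4920 of all 22961 rows. Of 32 other replication genes 24 were lower in LSK cells and 0 higher (median -0.49), including the fork adaptor Wdhd1 (-0.85 ± 0.08) and the nuclease-helicase Dna2 (-0.82 ± 0.11). Of 14 other chromatin copying genes 12 were lower (median -0.51), including the histone chaperone Nasp (-0.82 ± 0.11). Of 23 other nucleotide supply genes 11 were lower, including the folate enzyme Mthfd1 (-1.50 ± 0.15). Of 29 mitosis genes 25 were lower (median -0.53), with the phosphatase Cdc25c at -1.21 ± 0.12. The E2F, RB and G1/S kinase genes were mixed, with 11 of 27 lower and 4 higher. The histone genes transcribed in S phase, of which 28 of 60 had a row of their own, had 3 lower and 2 higher and a median of -0.01. Histone genes have near-identical copies, so probes may not tell them apart.

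Within the single pairs of groups fewer genes passed, all of them lower in LSK cells. In unirradiated WT cells 15 genes were called (3.93% of all rows were called lower), in irradiated WT cells 6 (1.87%), in unirradiated Parp-2-/- cells 6 (2.52%) and in irradiated Parp-2-/- cells 9 (3.19%). The medians of the 52 genes were -0.58, -0.51, -0.44 and -0.61 in that order. With a further quantile normalisation 4, 0, 2 and 2 of the 52 genes were called (1.56% of all rows called lower in unirradiated WT cells). With the 4 arrays of each pair fitted alone 0, 1, 1 and 1 were called. The shares of all rows called lower were then 0.161%, 0.257%, 0.431% and 0.344%. In unirradiated WT cells Gins1 read 5.96 and 6.61 in the LSK pools and 8.28 and 8.09 in the MP pools (-1.90 ± 0.29, adjusted p = 0.00487). Orc2 read 6.31 and 6.83 against 7.85 and 8.18 (-1.45 ± 0.25), and Fen1 5.03 and 4.39 against 6.68 and 6.29 (-1.78 ± 0.31). Ccne1 read 5.45 and 5.88 against 6.71 and 7.72 (-1.54 ± 0.27), with the MP pools far apart. The other named genes of this comparison were Mcm2 (-0.90 ± 0.17), Rrm1 (-1.06 ± 0.20), Cdc45 (-0.91 ± 0.19), Cdc6 (-0.97 ± 0.20), Dut (-0.72 ± 0.15), Pole2 (-1.05 ± 0.24), Rfc4 (-1.18 ± 0.28) and Dbf4 (-0.995 ± 0.245).

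In unirradiated Parp-2-/- cells the called genes were Ccne1 (-1.62 ± 0.27), Orc1 (-1.29 ± 0.23), Mcm2 (-0.89 ± 0.17), Gins1 (-1.48 ± 0.29), Fen1 (-1.49 ± 0.31) and Orc2 (-1.05 ± 0.25). Irradiated WT cells gave Gmnn, at 6.75 and 6.15 in LSK against 7.82 and 7.72 in MP cells (-1.32 ± 0.22, adjusted p = 0.0131), with Gins1 (-1.62 ± 0.29), Rfc4 (-1.36 ± 0.28), Dut (-0.75 ± 0.15), Prim2 (-1.20 ± 0.26) and Cdc45 (-0.78 ± 0.19). In irradiated Parp-2-/- cells Dbf4 led, at 5.16 and 5.65 in LSK against 7.45 and 7.34 in MP cells, 3.97-fold lower (-1.99 ± 0.25, adjusted p = 0.00207). It was called in every fit with 1 array left out. Pole2 (-1.32 ± 0.24), Chaf1b (-1.05 ± 0.20), Rrm1 (-1.01 ± 0.20), Rfc1 (-0.68 ± 0.15), Orc2 (-1.11 ± 0.25), Mcm10 (-0.96 ± 0.22), Rpa2 (-0.82 ± 0.21) and Mcm5 (-0.80 ± 0.20) completed that set.

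Leaving out 1 array leaves 1 pool in its group, which lowers the precision whatever that pool read. In each pair the number of replication genes called changed with the array left out, and so did the number of all tested rows called. Few or no calls within a single pair held in every such fit. Whether these shifts are particular to the replication genes was not tested. The median difference of the replication genes stayed below 0 in these fits. It ranged from -0.665 to -0.52 in unirradiated and from -0.625 to -0.455 in irradiated WT cells. In Parp-2-/- cells it ranged from -0.443 to -0.412 without and from -0.606 to -0.527 with irradiation. The average over the 4 pairs was steadier: 36 to 41 genes were called with 1 array left out, and 36 of the 41 in each of these 16 fits.

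Before irradiation most replication genes read higher in Parp-2-/- than in WT LSK cells, but none passed the test. The mean level of the 52 genes was 7.18 and 7.16 in the WT LSK pools and 7.46 and 7.41 in the Parp-2-/- LSK pools, with no overlap. Of the 52 genes 41 lay above 0, with a median of 0.33, where the median of all tested rows was -0.02 and that of the brighter rows 0.05. In 28 genes both Parp-2-/- pools lay above both WT pools, which held for 16% of all rows and 22.3% of the brighter rows. In 3 genes both lay below, which held for 4429 of all 22961 rows. In limma 0 of the 52 genes and 0% of all rows were called. At an unadjusted p under 0.05 there were 15 genes (28.8%, against 9.31% of all rows), 14 of them higher, and the smallest adjusted p was 0.197.

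Prim2, Rrm1 and Tk1 had the largest absolute t for genotype in unirradiated LSK cells. Prim2, the large primase subunit, read 5.58 and 5.67 in WT and 6.74 and 6.73 in Parp-2-/- LSK cells (1.11 ± 0.26, 2.16-fold, adjusted p = 0.197). Rrm1 read 8.69 and 8.02 in WT and 9.12 and 9.17 in Parp-2-/- cells (0.79 ± 0.20, adjusted p = 0.241). Without WT LSK pool 1, which leaves 1 pool in that group, its difference was 1.12. Tk1 had the opposite sign, with 7.76 and 8.30 in WT and 7.33 and 7.02 in Parp-2-/- cells (-0.85 ± 0.24, adjusted p = 0.276). The other row of Tk1 read -0.56 ± 0.40. All 6 MCM genes lay above 0 (median 0.42), as did 7 of 8 polymerase and primase genes (median 0.42), 5 of 5 genes for single-strand binding and the lagging strand (median 0.45) and 6 of 8 helicase activation genes (median 0.41). The G1/S regulators were split, with 2 of 4 above 0 and a median of -0.05.

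Other lists gave values beside these. Of 29 mitosis genes 25 lay above 0 in the same comparison (median 0.21), of 32 other replication genes 19 (median 0.17), and of 11 housekeeping genes 8 (median 0.12). In limma 0 of these were called, and 4, 7 and 0 had an unadjusted p under 0.05. The stem cell markers had a median of 0.01 and the erythroid markers of -0.08. With a further quantile normalisation the median of the 52 genes was 0.24 (all rows -0.008), with 37 above 0. In 16 genes both Parp-2-/- pools then lay above both WT pools, and the share of all rows under this scaling was not counted.

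In unirradiated MP cells the median genotype difference had the same sign and was smaller. In the test of genotype by cell type 0 of the 52 genes were called. The mean level of the 52 genes was 7.81 and 7.77 in the WT MP pools and 7.92 and 7.95 in the Parp-2-/- MP pools. There 48 of the 52 genes lay above 0 (median 0.15; all rows -0.01), and in 14 genes both Parp-2-/- pools lay above both WT pools (12.7% of all rows). In limma 0 of them were called (0.00436% of all rows), and 0 had an unadjusted p under 0.05. Pola2, a polymerase alpha subunit, read 6.37 and 6.44 in WT and 6.84 and 6.97 in Parp-2-/- MP cells (0.50 ± 0.25, adjusted p = 1). Cdc6 (0.37 ± 0.20) and Ccne1 (0.46 ± 0.27) overlapped between the genotypes, and Ccne1 read -0.04 without WT MP pool 1. In the same comparison 9 of 9 erythroid markers lay above 0 (median 0.38) and 1 of 10 granulocyte and monocyte markers (median -0.26). The part of these cell types in the replication values was not tested.

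After irradiation the mean level of the 52 genes was closer between the genotypes in LSK cells. In the genotype by radiation test 0 of the 52 genes were called. The mean level of the 52 genes was 7.20 and 7.27 in WT LSK IR and 7.24 and 7.36 in Parp-2-/- LSK IR pools, which overlapped. Of the 52 genes 27 lay above 0 (median 0.03), and in 9 genes both Parp-2-/- pools lay above both WT pools (15.5% of all rows). None of the 52 was called (0.0174% of all rows), and 11 had an unadjusted p under 0.05 (21.2%, against 9.55% of all rows). Without Parp-2-/- LSK IR pool 2 the median was -0.00568. Prim2 again stood higher, at 5.44 and 5.96 in WT and 6.31 and 7.14 in Parp-2-/- cells (1.02 ± 0.26, adjusted p = 0.256), and Dut read 6.82 and 6.97 against 7.29 and 7.53 (0.52 ± 0.15, adjusted p = 0.313). Dbf4 had the opposite sign, with 6.56 and 6.12 in WT and 5.16 and 5.65 in Parp-2-/- cells (-0.93 ± 0.25, adjusted p = 0.256).

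In irradiated MP cells 39 of the 52 genes lay above 0 (median 0.06), 15 with both Parp-2-/- pools above both WT pools (17.3% of all rows). None was called (0.00871% of all rows), and 0 had an unadjusted p under 0.05. Rrm1 read 9.27 and 9.33 in WT and 9.54 and 9.80 in Parp-2-/- cells (0.37 ± 0.20), Cdc45 7.95 and 8.11 against 7.77 and 7.62 (-0.33 ± 0.19), and Pcna 11.67 and 11.70 against 12.04 and 11.95 (0.31 ± 0.18; all adjusted p = 1). The other row of Pcna read -0.001 ± 0.141. All 9 erythroid markers lay higher in Parp-2-/- MP IR cells without overlap between pools (median 0.56), and all 10 granulocyte and monocyte markers lay below 0 (median -0.32), with 0 called in limma and 5 and 2 at an unadjusted p under 0.05. Their part in the replication values was not tested. Averaged over the 4 pairs of genotypes, 42 genes lay above 0 (median 0.13) and 0 were called (0.00871% of all rows), with 10 at an unadjusted p under 0.05 (19.2%, against 5.34% of all rows), all higher in Parp-2-/- cells. Prim2 had the largest mean difference (0.61 ± 0.13, adjusted p = 0.338), before Rrm1 (0.32 ± 0.10) and Dut (0.24 ± 0.08).

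**Figure D3:**
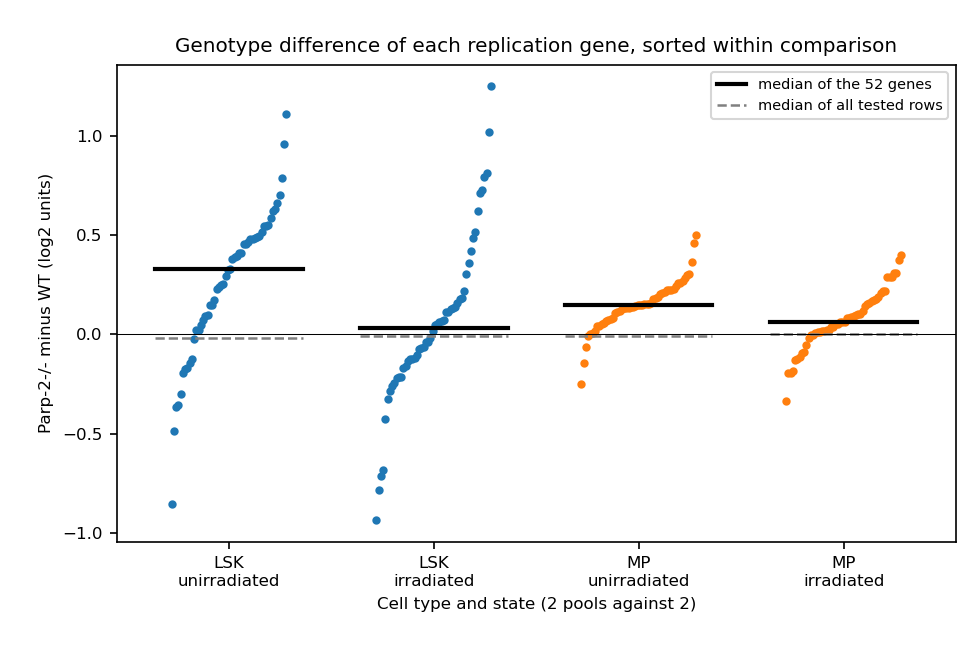
Each point is the Parp-2-/- minus WT difference of 1 of the 52 genes in log2 units, sorted within each of the 4 comparisons of 2 pools against 2. Thick bars give the median of the 52 genes (0.33 and 0.03 in LSK cells without and with irradiation, 0.15 and 0.06 in MP cells) and dashed lines that of all tested rows; no gene was called.

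Radiation changed few replication genes at 2.5 hours. In WT LSK cells 0 of the 52 were called (1.8% of all rows) and 10 had an unadjusted p under 0.05 (19.2%, against 14.7% of all rows), with a median of 0.07. In WT MP cells 0 were called (0.671%) and 3 had an unadjusted p under 0.05 (5.77%, against 6.24% of all rows), with a median of -0.04 that turned to 0.0337 without WT MP pool 1. In Parp-2-/- LSK cells 2 were called (1.47%), both lower. There 11 had an unadjusted p under 0.05 (21.2%, against 11.8% of all rows), 2 of them higher. The median was -0.10 (-0.16 to -0.0218 with 1 array left out, the latter without Parp-2-/- LSK pool 1). In Parp-2-/- MP cells 1 was called (0.588%), also lower, with a median of -0.08. Here 3 had an unadjusted p under 0.05 (5.77%, against 5.75% of all rows). Averaged over the 4 responses 3 genes were lower after irradiation and 0 higher, against 5.8% of all rows called in either direction, so the share of called genes was near that of all rows. At an unadjusted p under 0.05 there were 12 genes (23.1%, against 17.2% of all rows), 4 of them higher.

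Dbf4, which switches on the Cdc7 kinase at origins, had the largest response. In Parp-2-/- LSK cells it read 7.17 and 7.34 without irradiation and 5.16 and 5.65 after it, a 3.61-fold fall (-1.85 ± 0.25, adjusted p = 0.00247) that was called in all 16 fits with 1 array left out. In WT LSK cells it read 6.66 and 7.04 and then 6.56 and 6.12 (-0.51 ± 0.25, not called). In MP cells it read 8.10 and 7.59, then 7.27 and 7.09, in WT (-0.66 ± 0.25, adjusted p = 0.551) and 7.87 and 8.34, then 7.45 and 7.34, in Parp-2-/- cells (-0.71 ± 0.25, adjusted p = 0.512). In each of the 4 responses both irradiated pools lay below both unirradiated pools. The mean over the 4 responses was -0.93 ± 0.12 (adjusted p = 0.000549).

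Ccne1, the cyclin E that drives entry into S phase, was lower after irradiation in Parp-2-/- MP cells. It read 7.67 and 7.68 in unirradiated and 6.32 and 5.99 in irradiated Parp-2-/- MP cells (-1.52 ± 0.27, adjusted p = 0.0249), a call lost with quantile normalisation (adjusted p = 0.087) or over all 34760 rows (adjusted p = 0.0939). In WT MP cells it read 6.71 and 7.72, then 6.22 and 5.98 (-1.11 ± 0.27, adjusted p = 0.126, not called). In LSK cells it read 5.45 and 5.88, then 5.78 and 5.47, in WT and 6.03 and 6.08, then 6.30 and 6.38, in Parp-2-/- cells (-0.04 ± 0.27 and 0.28 ± 0.27). Only the unirradiated MP pools stood high. Without Parp-2-/- MP pool 1 or 2 the Parp-2-/- MP difference had adjusted p = 0.201 and 0.221, and without Parp-2-/- MP IR pool 1 or 2 adjusted p = 0.101 and 0.307; without WT MP pool 1 the WT difference was -1.62 (adjusted p = 0.0156). The erythroid markers moved with it: their mean level was 7.46 and 8.37 in WT MP pools 1 and 2 and 8.11 and 8.54 in Parp-2-/- MP cells, against 6.75 and 6.79 in WT MP IR and 7.41 and 7.77 in Parp-2-/- MP IR cells. Their part in the Ccne1 values was not tested. The mean over the 4 responses was -0.60 ± 0.14 (adjusted p = 0.0219), and it was 0.0533 with quantile normalisation.

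Pole2, the second subunit of polymerase epsilon, was lower in irradiated Parp-2-/- LSK cells, at 7.32 and 7.04 before and 5.78 and 6.42 after (-1.08 ± 0.24, adjusted p = 0.0484). This call held in 5 of 16 fits with 1 array left out, and with the 8 LSK arrays alone the adjusted p was 0.286. In WT LSK cells Pole2 read 6.27 and 6.68, then 6.61 and 7.02 (0.33 ± 0.24). Gmnn, the inhibitor of relicensing, read 7.28 and 7.18, then 6.75 and 6.15, in WT LSK cells (-0.78 ± 0.22, adjusted p = 0.108) and 7.77 and 7.63, then 7.42 and 6.93, in Parp-2-/- LSK cells (-0.52 ± 0.22). Its mean over the 4 responses was -0.45 ± 0.11 (adjusted p = 0.0346), called in 4 of 16 fits with 1 array left out. Cdc7, the kinase partner of Dbf4, read 6.44 and 6.71, then 5.75 and 5.68, in WT LSK cells (-0.86 ± 0.21, adjusted p = 0.0588), and passed with quantile normalisation (adjusted p = 0.0401) or among the brighter rows alone (adjusted p = 0.0479). Pole had the opposite sign there, with 6.09 and 6.62, then 6.92 and 7.57 (0.89 ± 0.26, adjusted p = 0.121).

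The remaining genes with the strongest responses did not pass. In Parp-2-/- LSK cells these were the loader subunits Rfc2 (8.005 and 7.862, then 7.002 and 7.601; -0.63 ± 0.18, adjusted p = 0.128) and Rfc1 (-0.46 ± 0.15, adjusted p = 0.193) and the chromatin factor Uhrf1 (-0.67 ± 0.20, adjusted p = 0.147). Without Parp-2-/- LSK IR pool 2, which leaves 1 pool in that group, Rfc2 read -0.93. In WT MP cells Rfc1 read 0.34 ± 0.15 (adjusted p = 0.751). In Parp-2-/- MP cells Cdc6 read 7.52 and 8.02, then 7.29 and 7.03 (-0.61 ± 0.20, adjusted p = 0.456), and Chaf1a -0.24 ± 0.17 (adjusted p = 1). The mean responses of the 6 MCM subunits were not called and lay between -0.16 and 0.07.

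**Figure D4:**
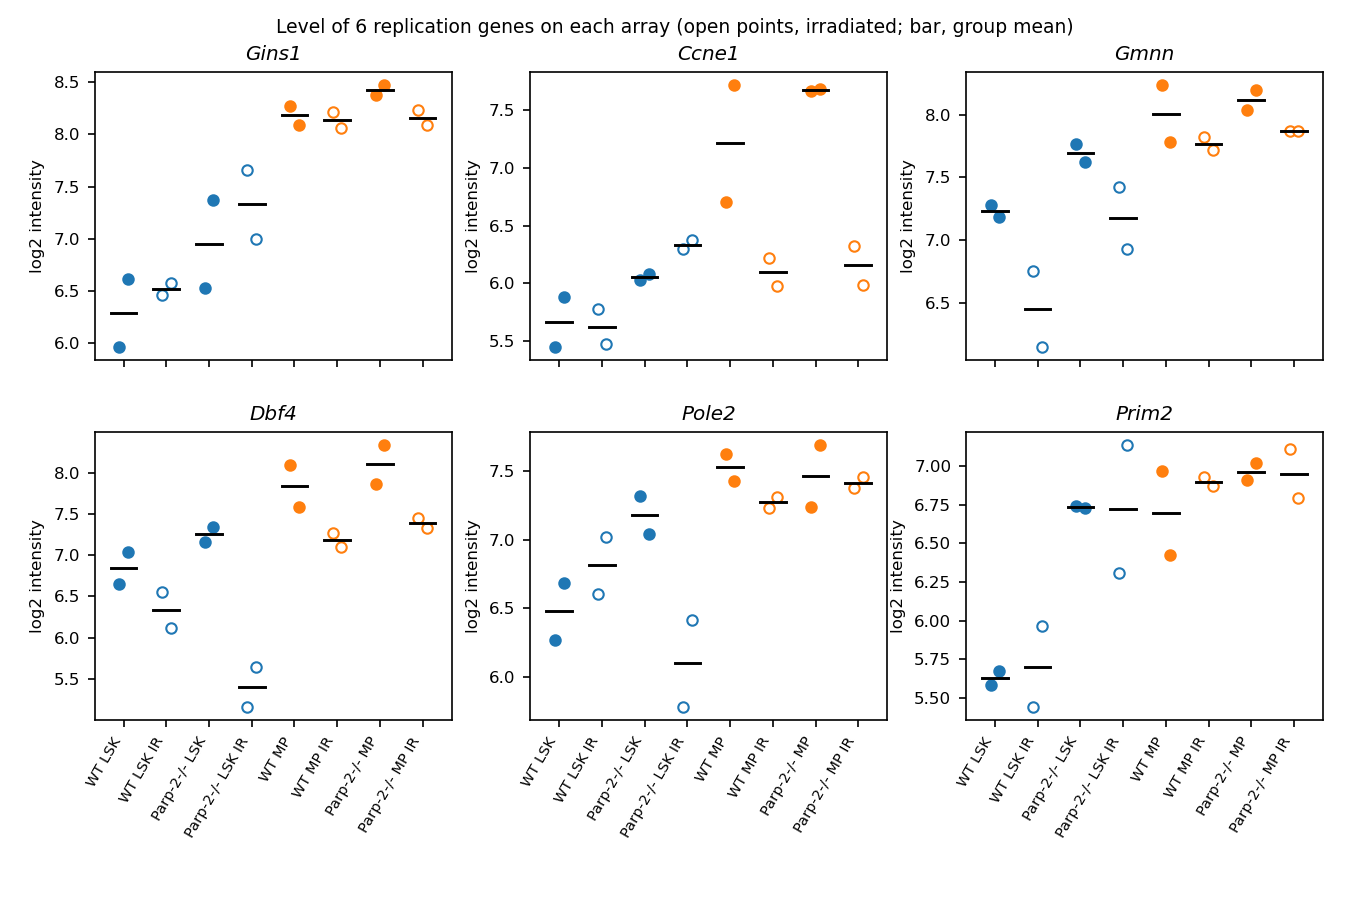
Levels (log2 intensity) of Gins1, Ccne1, Gmnn, Dbf4, Pole2 and Prim2 on each of the 16 arrays, by group; filled points are unirradiated, open points irradiated pools, blue LSK and orange MP, and bars are means of 2 pools. Dbf4 lies lowest in Parp-2-/- LSK IR (5.16 and 5.65), Ccne1 stands high only in the unirradiated MP pools (6.71 to 7.72), and Prim2 is higher in Parp-2-/- than in WT LSK pools.

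Other lists measured on the same arrays give the scale of the response. Of 13 p53 target genes 10 rose in each of the 4 responses, and 11 in their average (median 1.91), with Mdm2 at 2.07 ± 0.07 and Fas at 3.49 ± 0.18. Of 29 mitosis genes 8 fell in WT LSK, 3 in WT MP, 12 in Parp-2-/- LSK and 4 in Parp-2-/- MP cells, and 26 in the average (median -0.72), with the kinase gene Plk1 at -1.85 ± 0.12. In that order of cells 270, 131, 167 and 116 of all 22961 rows were called higher, and 760 in the average. The shares of all rows called lower were 0.623%, 0.1%, 0.74% and 0.0827%, and 2.49% in the average. Of 32 other replication genes limma called 0 in WT LSK, WT MP, Parp-2-/- LSK and Parp-2-/- MP cells, with 3, 1, 3 and 0 at an unadjusted p under 0.05, and 1 rose in the average (Orc3, 0.33 ± 0.08). The E2F, RB and G1/S kinase genes gave 2 higher and 6 lower of 27 in the average: Rb1 (0.98 ± 0.14) and Rbl2 (1.41 ± 0.13), which restrain E2F, rose, while the inhibitor gene Cdkn1b (-1.13 ± 0.10) and Myc (-0.91 ± 0.10) fell. Among nucleotide supply genes Cad, of pyrimidine synthesis, rose by 0.64 ± 0.09 and Ppat, of purine synthesis, fell by 0.49 on the log2 scale. Of the 28 histone genes 6 fell in the average, among them Hist1h1c (-1.36 ± 0.19). In Parp-2-/- MP cells all 28 lay below 0 (median -0.45), as did 12193 of all 22961 rows. There 0 histone genes were called and 10 had an unadjusted p under 0.05 (5.75% of all rows).

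**Figure D5:**
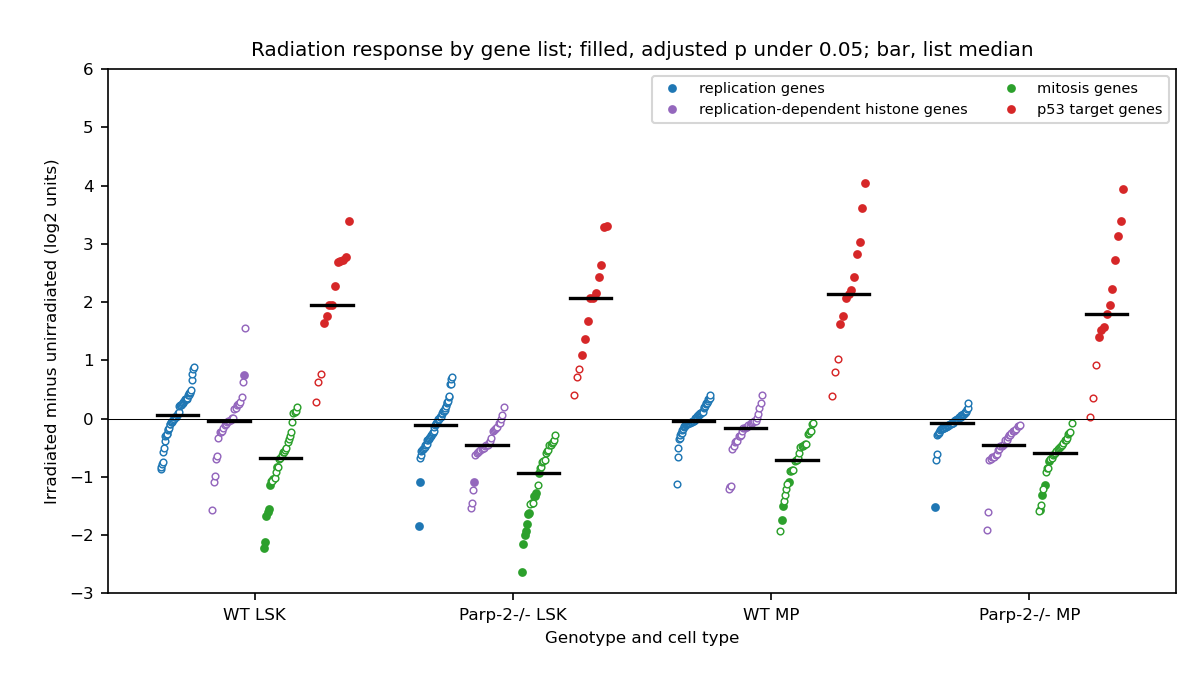
Irradiated minus unirradiated difference in log2 units for each gene of 4 lists (52 replication, 28 histone, 29 mitosis and 13 p53 target genes), sorted within each combination of genotype and cell type. Filled points passed at an adjusted p under 0.05 and bars are list medians; replication genes lie around 0 (medians 0.07, -0.10, -0.04 and -0.08), the p53 targets above it and the mitosis genes below it.

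Whether genotype or cell type altered these responses was tested directly. For genotype by radiation in LSK cells 0 of the 52 genes were called (0.00871% of all rows) and 11 had an unadjusted p under 0.05 (21.2%, against 9.52% of all rows). The median was -0.28, ranged from -0.401 to -0.16 with 1 array left out, and was -0.195 with quantile normalisation. Pole2 had the smallest adjusted p (-1.42 ± 0.34, adjusted p = 0.203), before Tk1 (1.34 ± 0.34, adjusted p = 0.237) and Dbf4 (-1.34 ± 0.35, adjusted p = 0.242). Without Parp-2-/- LSK IR pool 2, which leaves 1 pool in that group, Tk1 read 1.69. The other row of Tk1 read 0.84 ± 0.56 over all 16 arrays (adjusted p = 0.685). In MP cells 0 were called (0% of all rows) and 0 had an unadjusted p under 0.05, with E2f1 at -0.42 ± 0.24, Cdc45 at -0.41 ± 0.26 and Pola2 at -0.50 ± 0.35 (all adjusted p = 1).

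For cell type by radiation 0 of the 52 were called in WT (0% of all rows; 3 at an unadjusted p under 0.05, or 5.77% against 5.54% of all rows) and 0 in Parp-2-/- cells (0%; 5 at an unadjusted p under 0.05, or 9.62% against 5.36%). In WT cells Cdc7 differed by -0.90 ± 0.29 (adjusted p = 0.761), Ccne1 by 1.07 ± 0.39 (adjusted p = 0.815) and E2f1 by -0.56 ± 0.24 (adjusted p = 0.898). In Parp-2-/- cells Ccne1 differed by 1.79 ± 0.39 (adjusted p = 0.372), Dbf4 by -1.14 ± 0.35 (adjusted p = 0.672) and Pole2 by -1.03 ± 0.34 (adjusted p = 0.746). For genotype by cell type before irradiation 0 were called (0.00436% of all rows) and 2 had an unadjusted p under 0.05 (3.85%, against 3.88% of all rows), with Prim2 at 0.84 ± 0.37, Pole2 at 0.77 ± 0.34 and Rfc2 at 0.54 ± 0.26 (all adjusted p = 1). Genotype differences of the replication genes are thus not shown to differ between unirradiated LSK and MP cells, or before and after irradiation. Genotype by cell type was not tested in irradiated cells.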

How the data were processed

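The authors deposited log2 intensities, 1 value per array and transcript cluster, and these were used unchanged. RMA, affy 2.10, limma and R 2.15 appear in the submitters' processing notes, with no role for each. The log base was read from the values, and which arrays were normalised together is not stated there. Of 34760 rows, 22961 with a gene symbol were tested in limma 3.58.1 (R 4.3.3): 8 group means, eBayes with 8 residual and 4.35 prior degrees of freedom, 20 contrasts, Benjamini-Hochberg adjustment within each. Values are differences in log2 units ± SE with n = 2 pools per group. The median SE was 0.207 between 2 groups, 0.292 for an interaction and 0.103 for a mean over 4 pairs, and the number of arrays limits the precision. The fit was tested on simulated data. The 52 genes and all lists were chosen with earlier results of these data known. Genes were named by a rule: those called (where over 12, the 12 with the largest absolute t among genes whose groups did not overlap) and, where under 3 were called, the 3 with the largest absolute t. From other lists, at most 4 called genes could be named. Alternatives covered scaling, the rows tested, the variance model, arrays left out and the pool number as a block.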

Additional observations from a re-analysis of the deposited data

Results flagged for a closer look

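In irradiated cells the genotype difference of Dbf4 and of Pole2 ran in opposite directions in LSK and MP cells, with no overlap between the pools in either. Over all rows, 3395 of 22961 lay lower without overlap in Parp-2-/- LSK IR and 17.3% higher in Parp-2-/- MP IR cells. How many rows did both was not counted. Dbf4 was lower in Parp-2-/- LSK IR than in WT LSK IR cells (-0.9349) and higher in Parp-2-/- MP IR than in WT MP IR cells (0.21). Pole2 read -0.7121 in LSK IR, where the WT pools were 6.61 and 7.02 and the Parp-2-/- pools 5.78 and 6.42, and 0.14 in MP IR, where they were 7.23 and 7.31 and 7.38 and 7.45. The difference between the cell types was not tested in irradiated cells, and none of the 4 values passed the adjusted test.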

How the results depend on the processing

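The medians of the 52 genes kept their direction in the LSK against MP comparisons under every alternative run, and the number of calls did not. Quantile normalisation gave 4, 0, 2 and 2 calls in WT, WT IR, Parp-2-/- and Parp-2-/- IR cells, with medians of -0.30, -0.24, -0.22 and -0.35, and 20 calls and a median of -0.26 in their average. It also gave 16 genes higher without overlap between genotypes in LSK cells (share of all rows not counted), 1 call for radiation in WT LSK and 0 in Parp-2-/- MP cells. Testing all 34760 rows gave 9, 2 and 5 calls in WT, WT IR and Parp-2-/- IR cells. Of all rows 1.4%, 0.446% and 1.12% were then called lower. For radiation it gave 1, 0 and 1 calls in Parp-2-/- LSK, Parp-2-/- MP and on average. There 0.282%, 0.023% and 1.11% of all rows were called lower. Centring gave 11 calls in Parp-2-/- cells and 1 for radiation in Parp-2-/- LSK cells. The brighter rows alone gave 1 call for radiation in WT LSK cells, where 1.18% of those rows were called lower. A variance trend with robust eBayes, or the LSK arrays alone, left 1 call for radiation in Parp-2-/- LSK cells. With only the 4 arrays compared, calls were 0, 1, 1 and 1 for cell type and 0 for radiation in Parp-2-/- LSK cells, from fewer residual degrees of freedom. Over all rows 0.161% to 0.431% were then called lower for cell type, and 0 were called for that radiation response. Leaving out 1 array gave 2 to 19, 0 to 11 (median -0.625 to -0.455), 0 to 8 and 1 to 11 calls for cell type, 1 to 4, 0 to 1, 0 to 1 and 0 to 1 for radiation in Parp-2-/- LSK, Parp-2-/- MP, WT LSK and WT MP cells, 1 to 5 on average, 0 to 1 for genotype in LSK cells and 0 to 1 for its interaction with radiation. Ccne1 for genotype in MP cells ranged from -0.04386 (without WT MP pool 1) to 0.9657 (without pool 2). The number of all rows called for cell type in each pair also rose and fell with 1 array left out. The causes were not tested. The pool numbers did not pair samples (28 pairs of groups, r = -0.173 to 0.227, median 0.00449). With the pool number as a replicate block 14, 5, 5 and 8 genes were called for cell type and 40 on average, and no count moved by over 1.5 times. Of all rows 3.7%, 1.68%, 2.43% and 3.12% were then called lower for cell type, and 17.7% on average. Over all alternatives, 886 summary values stayed as reported and 73 moved; of the values of single genes, 1973 kept their side of the threshold, 252 lost the call, 6 gained it and 1 reversed.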
